A study of Mus musculus with 21 samples.

Results

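The 43 interferon-stimulated genes described here cover the transcription factors, sensors, antiviral enzymes and restriction factors switched on by interferon. They are a fixed list of mouse symbols, chosen by name with earlier results of these data known. They were read in 21 RNA sequencing libraries of 2 established mouse acute myeloid leukaemia lines, out of 16782 genes with a row in any of the 3 deposited expression tables. NUP98-NSD1 cells, transformed by a flag-tagged fusion of the nucleoporin NUP98 with the methyltransferase NSD1, gave 15 libraries, and MLL-AF9 cells, transformed by a flag-tagged fusion of MLL with AF9, gave the other 6. All were grown with stem cell factor. NUP98-NSD1 cells received DMSO or one of 2 inhibitors of the enzymatic activity of PRC2, UNC1999 or JQEZ5, at 3 µM for 4 days (3 libraries each). In a separate experiment they carried a puromycin-selected pLKO.1 lentivirus, either empty (shEV) or with a hairpin against Kdm5b (shKdm5b; 3 libraries each), and the labels do not name the hairpin. MLL-AF9 cells carried an MSCV-neo retrovirus, empty (EV) or with Kdm5b as wild type (WT) or as the demethylase-dead H499A form (2 libraries each). Each line is a single transformed line with no untransformed control, and the labels do not say whether replicates were separate cultures, so the p-values measure only the spread between these libraries, which may be technical.

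Type I interferon binds a receptor of IFNAR1 and IFNAR2, and the kinases JAK1 and TYK2 then phosphorylate STAT2, which acts with IRF9 in the complex ISGF3. This complex binds interferon-stimulated response elements in the promoters of its target genes, and IRF7, itself a target, drives further interferon production. The target proteins sense viral RNA (DDX58, also called RIG-I, IFIH1, also called MDA5, and DHX58, also called LGP2), degrade or block RNA (the OAS family, EIF2AK2, the IFIT family), restrict entry or budding (IFITM3, BST2), or restrain the pathway (USP18). Myeloid cells express many of them at a resting level without added interferon.

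The response element is read here through its core letters, GAAA, any 2 bases and GAAA (GAAANNGAAA), searched on both strands of the window from 250 bases before to 50 bases after each gene start in RefSeq (GRCm38.p6). Of the 43 genes 33 had such a window, and 15 of the 33 (45.5%) held the letters, against 1079 of 27025 genes (3.99%). A match is a run of letters and not a measured binding site. The following 60-base stretches, all upstream of the start and written 5′ to 3′ on the gene's strand with every match in capitals, are shown because these 8 genes hold the letters and include members called higher with H499A by large and by smaller folds (Oas1a, Oas3, Ifit1, Isg15, Rsad2), a highly expressed one (Bst2) and members not called with it (Ifit3, Stat2).
Oas1a, chr5:120907526-120907585, minus strand: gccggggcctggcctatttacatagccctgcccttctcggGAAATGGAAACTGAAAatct
Oas3, chr5:120777700-120777759, minus strand: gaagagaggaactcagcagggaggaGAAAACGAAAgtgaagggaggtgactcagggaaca
Isg15, chr4:156200856-156200915, minus strand: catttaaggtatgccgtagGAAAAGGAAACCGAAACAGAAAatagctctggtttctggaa
Ifit1, chr19:34640769-34640828, plus strand: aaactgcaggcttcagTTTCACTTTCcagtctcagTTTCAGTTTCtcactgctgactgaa
Ifit3, chr19:34583365-34583424, plus strand: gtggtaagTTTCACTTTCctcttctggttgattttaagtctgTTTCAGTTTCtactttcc
Rsad2, chr12:26456538-26456597, minus strand: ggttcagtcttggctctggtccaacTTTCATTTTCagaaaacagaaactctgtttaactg
Bst2, chr8:71537565-71537624, minus strand: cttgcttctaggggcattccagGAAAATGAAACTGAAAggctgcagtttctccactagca
Stat2, chr10:128270251-128270310, plus strand: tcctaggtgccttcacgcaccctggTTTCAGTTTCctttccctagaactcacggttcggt
In Oas1a, Isg15 and Bst2 the matches overlap, each sharing one GAAA with its neighbour, and in Ifit1, Ifit3, Rsad2 and Stat2 the letters stand on the opposite strand and so appear as TTTCNNTTTC.

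The inhibitor table held a row for 35 of the 43 genes, the knockdown table for 35 and the overexpression table for 42. The inhibitor table had no row for Oasl1, Oasl2, Ifit3, Mx1, Mx2, Rtp4, Ifi44 and Zbp1, the knockdown table none for Oas3, Oasl1, Oasl2, Ifit1, Mx1, Mx2, Ifi44 and Zbp1, and the overexpression table none for Oas1g. A gene was tested where enough libraries to fill the smallest group lay at least 1 log2 unit over the table's floor, which is 59.0, 86.6 and 145 normalised read counts in the 3 tables, and 27, 24 and 27 members passed this filter on low values. The filter let 4 genes of the overexpression experiment through although their EV libraries did not all reach it (Irf7, Oas2, Rtp4, Nmi), as it did 2 in the inhibitor experiment (Oas2, Usp18) and 1 in the knockdown (Gbp2). A fit with no filter therefore stands beside the filtered one, so that every gene with a row is counted. Levels below are normalised read counts, recovered from the deposited log2-scale values, and folds are ratios of group means of those counts. Differences given with a standard error (SE) are on the deposited log2 scale, where genes of low count move less than their fold. Called means an adjusted p under 0.05 by limma with the Benjamini-Hochberg method over all genes tested in the table.

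Libraries held 12812646 to 18928764 reads in the inhibitor experiment, 21273211 to 34813867 in the knockdown and 17341257 to 19973218 in the overexpression experiment. Kdm5b itself matched the labels: its libraries stood at 61.6, 94.8 and 67.0 with shEV and at 34.1, 28.8 and 23.2 with shKdm5b, and at 114 and 128 with EV, 1409.6 and 1416 with WT and 309 and 279 with H499A. WT therefore stood 4.80-fold above H499A in Kdm5b level, so that between these groups the level and the mutation cannot be told apart. In the knockdown Kdm5b did not pass the filter, and its shKdm5b libraries held 17 to 34 reads. In the inhibitor experiment Kdm5b stood at 607 in DMSO, 886 with UNC1999 and 658 with JQEZ5, as group means. No ligand was seen, since none of 11 interferon genes (Ifnb1, 5 Ifna genes, Ifng, Ifnk, Ifne, Ifnl2 and Ifnl3) had a row in any table. Markers that define plasmacytoid dendritic cells (Siglech, Ccr9, Ly6d), B cells (Cd79a, Ms4a1, Pax5), T cells (Cd3e, Cd3g) and erythroid cells (Hba-a1, Hbb-bs) had no row either. Other markers of the same lists did: 2 to 5 of 10 dendritic markers, 1 of 5 B cell markers (Cd79b), 1 to 2 of 6 T and NK cell markers and 2 to 3 of 6 erythroid and megakaryocyte markers, depending on the table. These and a list of 8 monocyte and macrophage markers differed between groups, and their values stand beside the results below. In bulk RNA, fewer cells that express a gene and less of its RNA per cell cannot be told apart.

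At rest the 43 genes covered a wide range of levels. In CPM (reads scaled to a common library total) per kilobase of exon, Ifitm3 led in DMSO cells at 185 ± 5.58 (SD, n = 3), ahead of Bst2 at 73.3 ± 4.23 and Trim25 at 20.4 ± 0.670, while Ifit1 was lowest at 0.136 ± 0.0323. The same genes led in EV cells, with Ifitm3 at 51.4 ± 0.724 (SD, n = 2), Bst2 at 46.0 ± 0.0394 and Trim25 at 21.3 ± 0.296, and Oasl2 was lowest at 0.0309 ± 0.0203. In shEV cells the order changed: Bst2 stood first at 60.1 ± 1.95 (SD, n = 3), Ifitm3 second at 23.0 ± 1.44 and Oas1a at 16.6 ± 0.870, with Rsad2 lowest at 0.0231 ± 0.0143. Ifitm3, which blocks virus entry at endosomes, had unlike levels in the control groups of the same NUP98-NSD1 line, at 125 ± 3.78 CPM in DMSO and 15.6 ± 0.979 in shEV cells (SD, n = 3 each). These groups come from separately normalised experiments with different handling, so the levels are set side by side with no test. Isg15, a ubiquitin-like protein often used as a marker of interferon exposure, ranged from 0.247 CPM in shEV to 3.91 in H499A cells, as group means. Per kilobase of exon these levels were 0.326 and 5.17. By that measure Isg15 ranked 28 among the members with a row in shEV, 22 in DMSO and 20 in H499A cells.

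**Figure D1:**
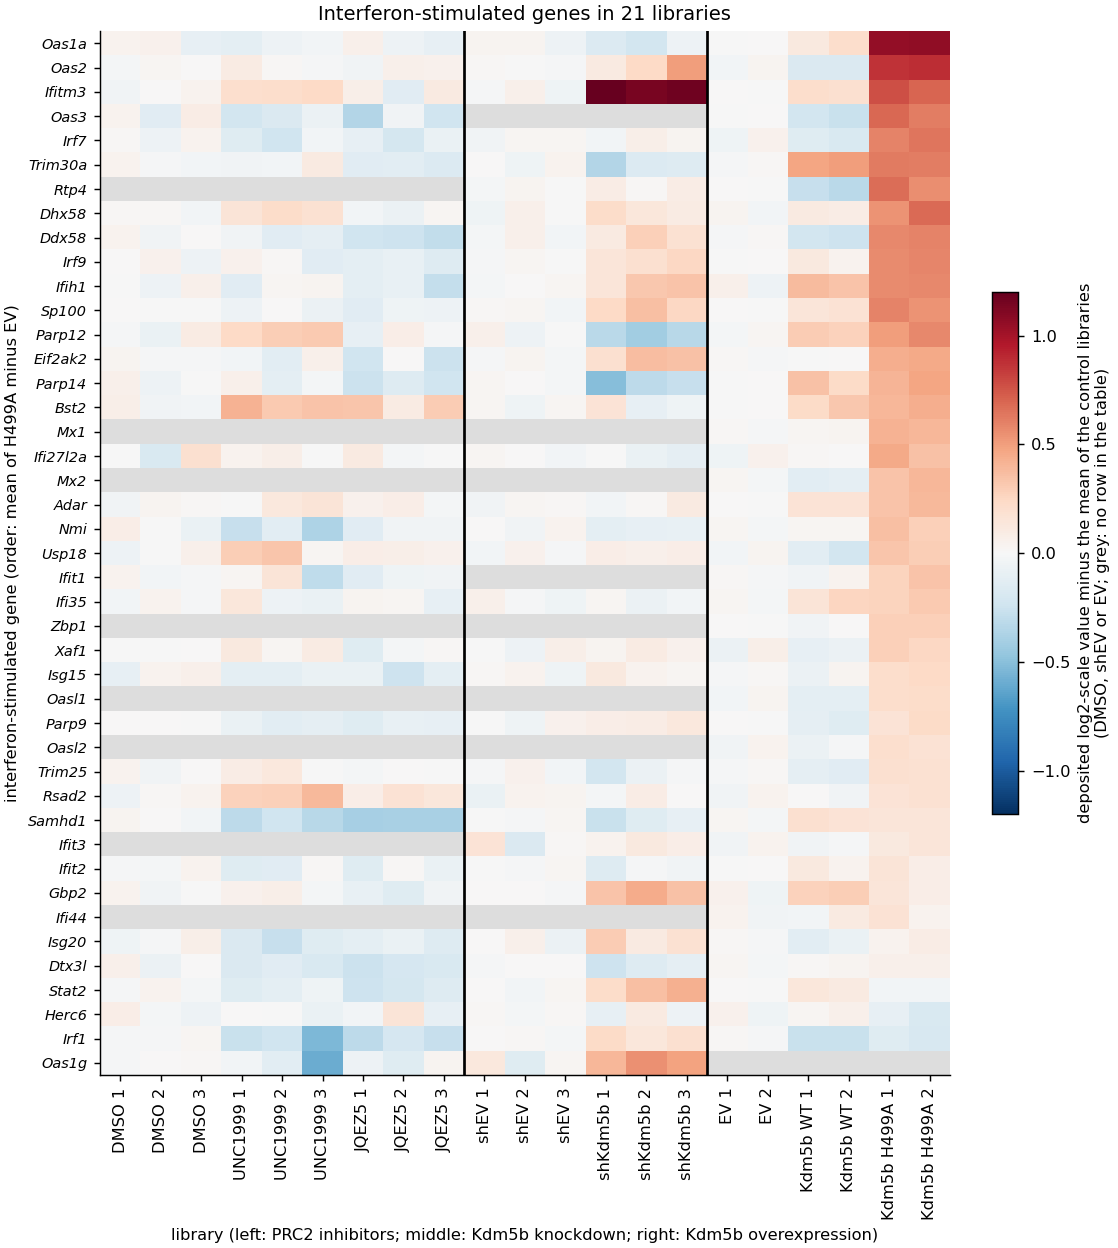
Heat map of the 43 genes (rows) in the 21 libraries (columns), each cell the deposited log2-scale value minus the mean of the control libraries of its experiment (DMSO, shEV or EV), red higher, blue lower, grey where the table has no row. The 2 H499A libraries are red in most rows, the shKdm5b libraries are red and blue in different rows with Ifitm3 the darkest, and the inhibitor libraries stay pale.

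The broadest change was in MLL-AF9 cells with demethylase-dead Kdm5b. Against EV, H499A raised 34 of the 42 genes with a row and lowered 2, in the fit with no filter, where 19.6% of all genes were called higher and 19.1% lower. After the filter 23 of 27 were higher and 2 lower, against 22.7% and 26.9% of all genes tested, and the median difference over the 27 was 0.45 log2 units against -0.01 over all genes. Those 23 include Irf7, Oas2 and Rtp4, which passed the filter through their H499A libraries alone. Wild-type Kdm5b, compared with the same 2 EV libraries, gave 12 higher and 8 lower of 27, against 29.8% and 32.4% of all genes, with a median of 0.08 against -0.01. With no filter 13 of 42 were higher with WT and 10 lower (24.3% and 23.8% of all genes). In both fits the share lower with WT lies near that of all genes. Tested directly, 21 of the 27 genes were lower in WT than in H499A and 2 higher, where 26.3% of all genes were lower and 28.2% higher, and the median difference was -0.31 against 0.01. With no filter 34 of 42 were lower in WT than in H499A and 3 higher (20.9% and 20.7% of all genes).

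The OAS enzymes, which make the second messenger that activates RNase L, were among those that changed most. They lie together on chromosome 5 of GRCm38 (Oas1a at 120896256 to 120907521, Oas2 at 120730333 to 120749853 and Oas3 at 120753098 to 120777661, all on the minus strand). Oas2 read 50.3 and 63.7 in the EV libraries, 29.4 and 29.5 with WT and 344 and 355 with H499A. The H499A libraries stood far above both other groups and the WT libraries below EV, with no overlap. Oas2 was thus 6.14-fold higher with H499A (log2 difference 0.88 ± 0.04 SE; limma adjusted p = 1.71e-15) and at 0.517 times EV with WT (limma adjusted p = 0.000885). Oas3 moved the same way, from 151 and 154 in EV to 92.4 and 82.5 with WT and to 459.6 and 419 with H499A. Its fold was 2.88 with H499A (limma adjusted p = 5.49e-13) and 0.573 with WT (limma adjusted p = 1.54e-05). Oas1a, whose matches lie just upstream of the start, stood at 295 and 297 in EV, 354 and 399.9 with WT and 1064 and 1074 with H499A. Both groups were higher than EV, by 1.27-fold with WT (limma adjusted p = 0.00057) and 3.61-fold with H499A (limma adjusted p = 3.29e-18). WT against H499A gave -0.89 ± 0.04 log2 units for Oas1a, -1.06 ± 0.04 for Oas2 and -0.90 ± 0.04 for Oas3 (SE). Oasl1, a catalytically inactive relative, read 35.5 and 44.2 in EV, 24.2 and 23.6 with WT and 78.0 and 81.1 with H499A, and in the unfiltered fit it was higher with H499A (limma adjusted p = 0.00114) and lower with WT (0.0375). Oasl2 rested on 2 to 5 reads per EV library and 16 to 19 per H499A library, and was called higher with H499A (limma adjusted p = 0.00867, no filter).

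**Figure D2:**
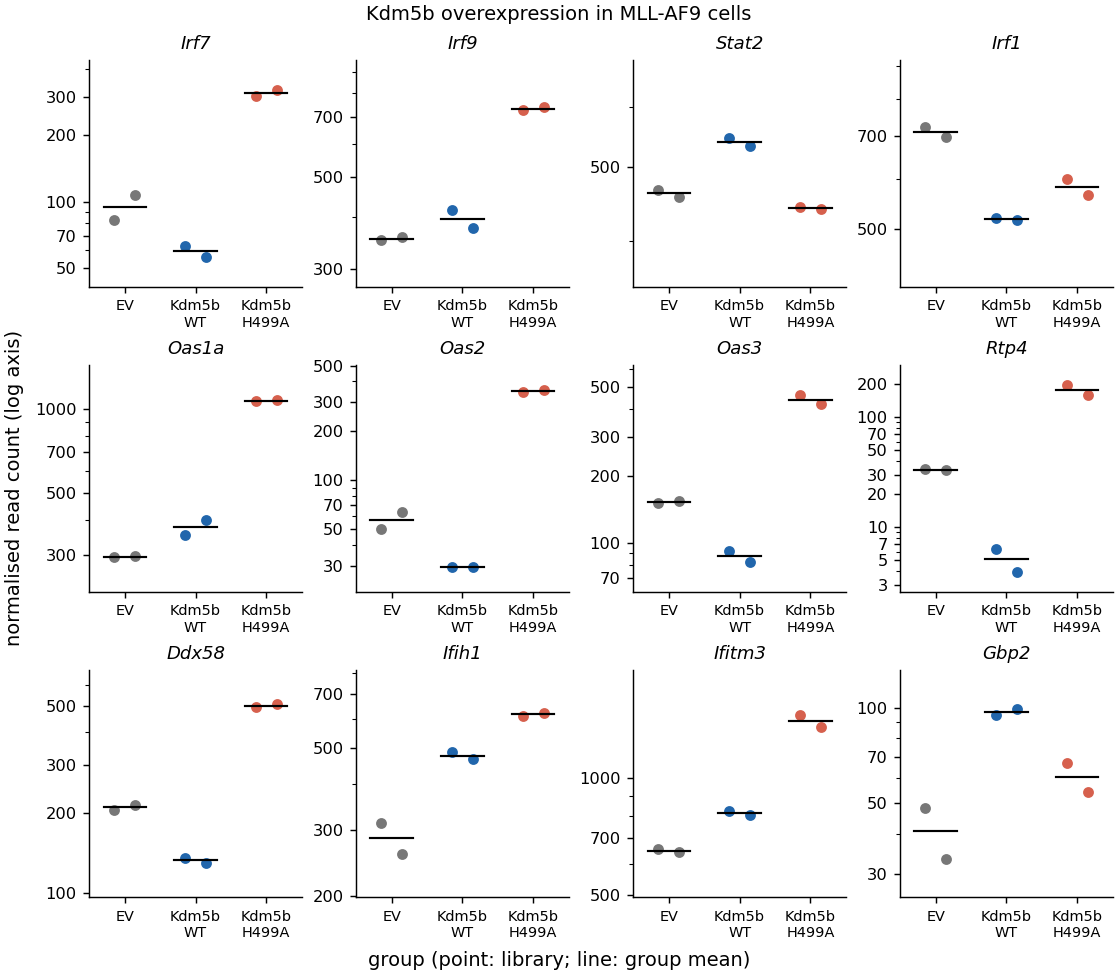
Normalised read counts (log axis) of 12 interferon-stimulated genes in each library of MLL-AF9 cells with EV, Kdm5b WT or Kdm5b H499A (point, library; line, group mean; n = 2 each). Irf7, Oas2, Oas3, Rtp4 and Ddx58 lie below EV with WT and above it with H499A, whereas Ifih1 and Ifitm3 lie above EV in both and Gbp2 is highest with WT.

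The transcription factors did not move as a unit. Irf7 read 82.8 and 107 in EV, 63.0 and 56.0 with WT and 301 and 322 with H499A. It was 3.29-fold higher with H499A (log2 difference 0.62 ± 0.04 SE; limma adjusted p = 4.78e-12) and at 0.628 times EV with WT (limma adjusted p = 0.00212; 0.0692 without EV replicate 2). Irf9, the DNA-binding part of ISGF3, went from 352 and 357 in EV to 725 and 740.1 with H499A, a 2.07-fold rise (limma adjusted p = 1.12e-12). With WT it read 416 and 377, a difference of 0.08 ± 0.04 (SE) that was not called (limma adjusted p = 0.0724; 0.0313 without WT replicate 2). Stat2, its partner, read 468 and 457 in EV and 444 and 441 with H499A, where the difference of -0.03 ± 0.04 (SE) was not called (limma adjusted p = 0.465). With WT it was 546 and 533, 1.17-fold above EV (limma adjusted p = 0.0057) and 1.22-fold above H499A (limma adjusted p = 0.000853). Stat2, Herc6 and Gbp2 were the 3 genes called higher in WT than in H499A with no filter. Irf1, an early interferon-gamma target that acts apart from ISGF3, was lower in both: 724 and 698 in EV, 521 and 517 with WT and 599 and 566 with H499A. Its levels were 0.730 and 0.820 times EV (limma adjusted p = 5.23e-07 and 0.000298), and the lower value in WT than in H499A (limma adjusted p = 0.0299) was lost without WT replicate 1, WT replicate 2 or H499A replicate 1 (0.068, 0.0889 and 0.21).

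The 3 cytosolic RNA sensors Ddx58, Ifih1 and Dhx58 all rose with H499A, while with WT 1 fell, 1 rose and 1 was not called. Ddx58 read 205 and 214 in EV, 136 and 129.7 with WT and 495 and 508 with H499A, so that WT lay below EV (0.633 times; limma adjusted p = 1.23e-05) and H499A above (2.39-fold; limma adjusted p = 1.54e-12). Ifih1 read 315 and 259, then 488 and 467, then 613 and 622, and rose in both (1.67-fold and 2.15-fold; limma adjusted p = 2.41e-08 and 6.94e-12). Dhx58, which tunes both, rose 2.38-fold with H499A (limma adjusted p = 8.87e-12) from 251 and 221 to 513 and 611, while the WT libraries at 283 and 272 were not called (limma adjusted p = 0.0533). Eif2ak2, the RNA-activated kinase PKR, stood at 914 and 883 in EV, 895 and 904 with WT and 1389 and 1411 with H499A. EV and WT overlapped, and H499A was 1.56-fold above EV (limma adjusted p = 7.32e-12). Adar, which edits double-stranded RNA, and Zbp1, a sensor of Z-form nucleic acid, were also higher with H499A: Adar 1.42-fold, and Zbp1 from 21.7 and 20.5 to 65.0 and 64.7.

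Like Irf7 and Oas2, Rtp4, a receptor transporter protein with antiviral activity, passed the filter through its H499A libraries alone. It read 33.5 and 33.4 in EV, 6.30 and 3.93 with WT and 196 and 159 with H499A. The WT values rest on 6 and 4 reads. H499A was 5.30-fold above EV (limma adjusted p = 1.38e-11), WT stood at 0.153 times EV (limma adjusted p = 3.16e-06), and the direct difference was -0.91 ± 0.05 log2 units (SE; limma adjusted p = 4.6e-15). The dynamin-like GTPases Mx1 and Mx2 lay below the filter. Mx1 read 32.5 and 28.1 in EV, 33.6 and 34.4 with WT and 111 and 106 with H499A, 3.59-fold above EV (limma adjusted p = 2.13e-06, no filter). Mx2 read 18.7 and 14.0, then 6.30 and 7.86, then 66.9 and 78.2, and its H499A libraries stood above the rest with a fold of 4.43 (limma adjusted p = 1.26e-05, no filter).

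The interferon-induced tetratricopeptide genes on chromosome 19 differed among themselves. Ifit1 read 13.8 and 11.9 in EV, 9.45 and 16.7 with WT and 46.4 and 58.9 with H499A, a 4.10-fold rise (limma adjusted p = 0.000147, no filter). Ifit2, the most abundant of the family here, read 389.6 and 395, then 461 and 415, then 484 and 438. It was 1.18-fold higher with H499A (limma adjusted p = 0.0154), a call lost without EV replicate 1, EV replicate 2 or H499A replicate 1 (0.08, 0.0602 and 0.198). Ifit3 held 5 and 10 reads in EV and 18 and 21 with H499A and was not called (limma adjusted p = 0.0518, no filter); it has a near-identical neighbour, Ifit3b, and reads may be split between them. Isg15, with overlapping matches upstream, was higher with H499A: it read 31.6 and 35.6 in EV, 24.2 and 38.3 with WT and 69.6 and 75.3 with H499A, 2.16-fold (limma adjusted p = 0.00151, no filter). Usp18, which removes ISG15 from proteins and dampens the receptor, read 57.2 and 71.2, then 42.0 and 28.5, then 148 and 136. It was higher with H499A (2.21-fold; limma adjusted p = 7.07e-05) and lower with WT (0.549 times; limma adjusted p = 0.00673), both with no filter.

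Ifitm3, Bst2, Trim30a, Sp100, Parp12, Parp14, Ifi35 and Samhd1 were called higher in both Kdm5b groups. Ifitm3 read 657 and 645 in EV, 822 and 805 with WT and 1445 and 1351 with H499A, 1.25-fold and 2.15-fold above EV (limma adjusted p = 1.71e-05 and 7.84e-16). Bst2, or tetherin, read 776 and 777, then 988 and 1089, then 1176 and 1216 (1.34-fold and 1.54-fold). Trim30a, a regulator of Toll-like receptor signalling, rose in both, from 828 and 847 to 1349 and 1389 with WT and to 1554 and 1538 with H499A (1.63-fold and 1.85-fold). Sp100, a nuclear body protein, read 916 and 908 in EV, 1059 and 1089.7 with WT and 1628 and 1545 with H499A, 1.18-fold and 1.74-fold above EV. Parp12 (1.69-fold and 2.47-fold), Parp14 (1.38-fold and 1.60-fold), Ifi35 (1.32-fold and 1.47-fold) and the dNTP hydrolase Samhd1 (1.17-fold and 1.14-fold) were called higher in both groups, with limma adjusted p from 2.44e-10 to 0.000133 for Parp14, Ifi35 and Samhd1. For Samhd1 the WT and H499A libraries differed by 0.03 ± 0.03 log2 units (SE; limma adjusted p = 0.404), and for Ifi35 by -0.09 ± 0.04 (0.0721). The lower level of Parp14 in WT than in H499A (0.859 times; limma adjusted p = 0.00168) was lost without WT replicate 2 (0.0698).

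Trim25, the ubiquitin ligase that acts on RIG-I, and Parp9 went in opposite directions, lower with WT (0.901 and 0.878 times EV; limma adjusted p = 0.000467 and 0.00313) and higher with H499A (1.17-fold and 1.22-fold; limma adjusted p = 3.99e-06 and 2.91e-05). Nmi, which binds STAT proteins, read 149.9 and 135 in EV, 148 and 148 with WT and 275 and 243 with H499A (1.82-fold; limma adjusted p = 3.37e-07). Xaf1 (1.85-fold), Ifi27l2a (3.68-fold) and Rsad2, or viperin (2.55-fold), were also called higher with H499A in the unfiltered fit. The members that did not follow were Herc6, Dtx3l, Isg20, Ifi44 and Gbp2, besides Stat2, Irf1 and Ifit3. Herc6, the ligase that attaches ISG15 in mice, was lower with H499A (211 and 183 against 274 and 229 in EV; 0.784 times; limma adjusted p = 0.00956), a call lost without EV replicate 1 or H499A replicate 2 (0.193 and 0.14). Dtx3l read 1098 and 1039 in EV and 1136 and 1129.9 with H499A and was not called (limma adjusted p = 0.136). Its 5′ part overlaps that of Parp9 on the opposite strand, and since the use of strand in counting is not stated in the sources used here, reads in the overlap cannot be assigned to either gene. Gbp2, a guanylate-binding protein known as an interferon-gamma target, was highest with WT: 48.3 and 33.4 in EV, 94.5 and 99.2 with WT and 66.9 and 54.0 with H499A. It rose 2.37-fold with WT (limma adjusted p = 0.000126, no filter) and was not called with H499A (0.066).

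**Figure D3:**
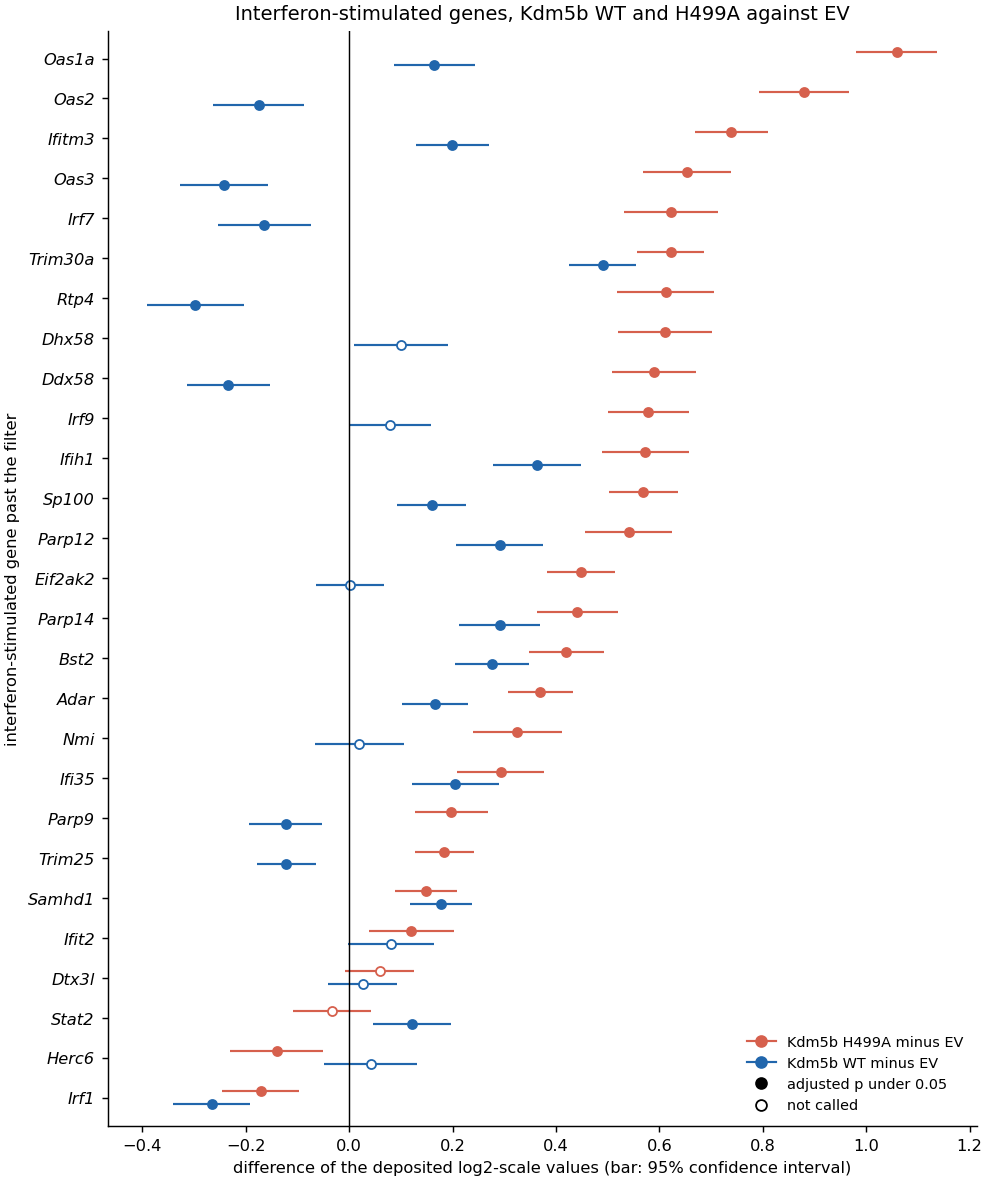
Differences of the deposited log2-scale values from EV (x axis; bar, 95% confidence interval) for the 27 tested interferon-stimulated genes (y axis), H499A in red and WT in blue, filled where the limma adjusted p is under 0.05. The red points run from -0.17 for Irf1 to 1.06 for Oas1a with 23 filled on the right, while the blue points fall on both sides of 0, from -0.30 for Rtp4 to 0.49 for Trim30a.

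Among the listed genes with a window, genes rose with H499A whether or not it held GAAANNGAAA. With no filter, where 19.6% of all genes were called higher with H499A, 11 of the 14 listed genes with the letters and a row were (median fold 2.16). So were 13 of the 18 with a window but no match (median fold 1.61). Stat2, printed above with its match, had the lowest fold of the first set, 0.957. Oas2, Usp18, Dhx58, Mx1, Mx2, Rtp4, Parp9, Parp14, Zbp1 and Ifi27l2a had no window and are in neither set. Of these, Oas2 and Rtp4 had larger folds than any gene with a window, where the highest were 4.10 with the letters and 4.49 without. Whether the genes with no window hold the letters is not known here.

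The monocyte and macrophage markers (7 of 8 with a row, C1qa absent) summed to 14441 to 15320.0 normalised counts in the EV libraries, 45287 to 47379 with WT and 28123 to 28246 with H499A. Their order was WT above H499A above EV. Other markers moved as well. A list of 12 myeloid progenitor and leukaemia markers summed to 121131 to 125863 in EV and 124307 to 124870 with H499A. It was higher with WT, at 159488 to 162421. Cd79b, a part of the B cell receptor, was at 323 in EV, 232 with WT and 672 with H499A, as group means. Nkg7, the T and NK cell marker with a row, was at 309, 49.8 and 129, and the 5 dendritic markers with a row summed to 4448 to 4537 in EV, 3355 to 3514 with WT and 3940 to 3967 with H499A. The part of these markers in the members' results was not tested.

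The pathway around the list was read from further fixed lists. Of 15 receptor and JAK-STAT genes tested 11 rose with WT and 0 fell by limma (also 0 at an unadjusted p under 0.05 and by voom), while 10 rose and 3 fell with H499A. Of all genes 29.8% rose and 32.4% fell with WT, and 22.7% rose and 26.9% fell with H499A. Irf8, a myeloid transcription factor, was highest with WT: 3488 ± 85.5 in EV, 5579 ± 138 with WT and 4240 ± 22.0 with H499A (SD, n = 2 each; limma adjusted p = 9.72e-17 and 9.91e-09 against EV). The receptor chain Ifnar2 stood at 3189 ± 24.5 in EV and 4783 ± 24.4 with WT (1.50-fold; limma adjusted p = 1.27e-15), and Ifnar1 at 1435 ± 47.4 in EV and 2003 ± 37.7 with H499A (1.40-fold; limma adjusted p = 2.96e-10). Of 10 inhibitors of the pathway, 4 rose with each form and 3 fell with WT, where the share that fell lies near that of all genes. Ptpn1, a phosphatase of JAK kinases, rose 1.40-fold with WT and 1.47-fold with H499A (limma adjusted p = 5.68e-12 and 4.93e-13). Of 19 genes for nucleic acid sensing upstream of interferon, 9 rose and 7 fell with WT and 6 rose and 2 fell with H499A, where the shares that fell with WT and rose with H499A lie near those of all genes. Tlr9, the endosomal DNA sensor, went from 256 ± 12.2 in EV to 679 ± 5.32 with WT and 468 ± 6.69 with H499A (SD, n = 2 each; 2.66-fold and 1.83-fold; limma adjusted p = 4.03e-15 and 4.8e-10). Tlr7, its RNA counterpart, read 40.5 ± 5.44 in EV and 183 ± 10.1 with WT (4.50-fold; limma adjusted p = 6.51e-12). Irf8, Ifnar2, Tlr9 and Tlr7 were each higher with WT than with H499A in the direct test (limma adjusted p from 1.01e-11 to 1.26e-07 for Irf8, Tlr7 and Tlr9, and 8.63e-13 for Ifnar2), the opposite of most interferon-stimulated genes.

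Of 47 other interferon-induced genes tested, 27 rose and 9 fell with H499A, against 22.7% and 26.9% of all genes. With WT 13 rose and 18 fell, shares near the 29.8% and 32.4% of all genes. WT was lower than H499A for 30 of the 47 and higher for 8, where 26.3% of all genes were lower and 28.2% higher. Ly6c2 and Ly6c1, surface antigens of monocytes with near-identical sequences whose reads may be split, rose most with H499A. Ly6c2 went from 790.3 ± 19.1 in EV to 975 ± 35.2 with WT and 4450.2 ± 57.4 with H499A (SD, n = 2 each), which is 5.63-fold above EV with H499A (limma adjusted p = 1.09e-25). Slfn2, a Schlafen protein of myeloid and T cells, rose in both, from 259 ± 18.5 to 701 ± 49.5 and 925 ± 43.2 (2.71-fold and 3.57-fold; limma adjusted p = 8.14e-15 and 2.48e-17). Slfn5 stood at 147 ± 9.82 with WT and 652 ± 9.01 with H499A (limma adjusted p = 8.87e-17).

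In NUP98-NSD1 cells, knockdown of Kdm5b raised part of the list. Of 24 genes tested 11 rose and 4 fell, against 15.0% and 17.4% of all genes, with a median difference of 0.06 log2 units against -0.01 over all genes. With no filter 12 of 35 rose and 5 fell (11.3% and 12.3% of all genes). In both fits the share that fell lies near that of all genes. Without shEV replicate 1 or shEV replicate 3 the filtered counts were 6 higher and 1 lower, and without shEV replicate 2 the number lower was 2. The calls of Ifitm3, Gbp2, Sp100, Stat2, Eif2ak2, Ifih1 and Parp14 were kept in every alternative in which they were tested and with every library left out.

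Ifitm3 had the largest log2 difference of the tested members. It read 455, 491 and 435 in the shEV libraries and 1552, 1359 and 1389.7 in the shKdm5b libraries. The groups lay far apart, with a 3.11-fold rise (log2 difference 1.20 ± 0.05 SE; limma adjusted p = 2.27e-06). Gbp2 read 39.9, 39.8 and 37.8 with shEV and 90.2, 110.03 and 92.8 with shKdm5b, and rose 2.49-fold (0.38 ± 0.05 SE; limma adjusted p = 0.000477), again without overlap. It passed the filter through its shKdm5b libraries alone. Oas1g, a close copy of Oas1a that lay below the filter, read 26.0, 6.77 and 17.0 with shEV and 58.1, 83.3 and 71.0 with shKdm5b (4.26-fold; limma adjusted p = 0.00202, no filter). Oas1a itself stood at 946, 953 and 868 with shEV and 789, 752 and 872 with shKdm5b, a difference of -0.15 ± 0.05 (SE) that was not called (limma adjusted p = 0.0644). The 2 genes share long identical stretches, and counting could have moved reads between them.

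**Figure D4:**
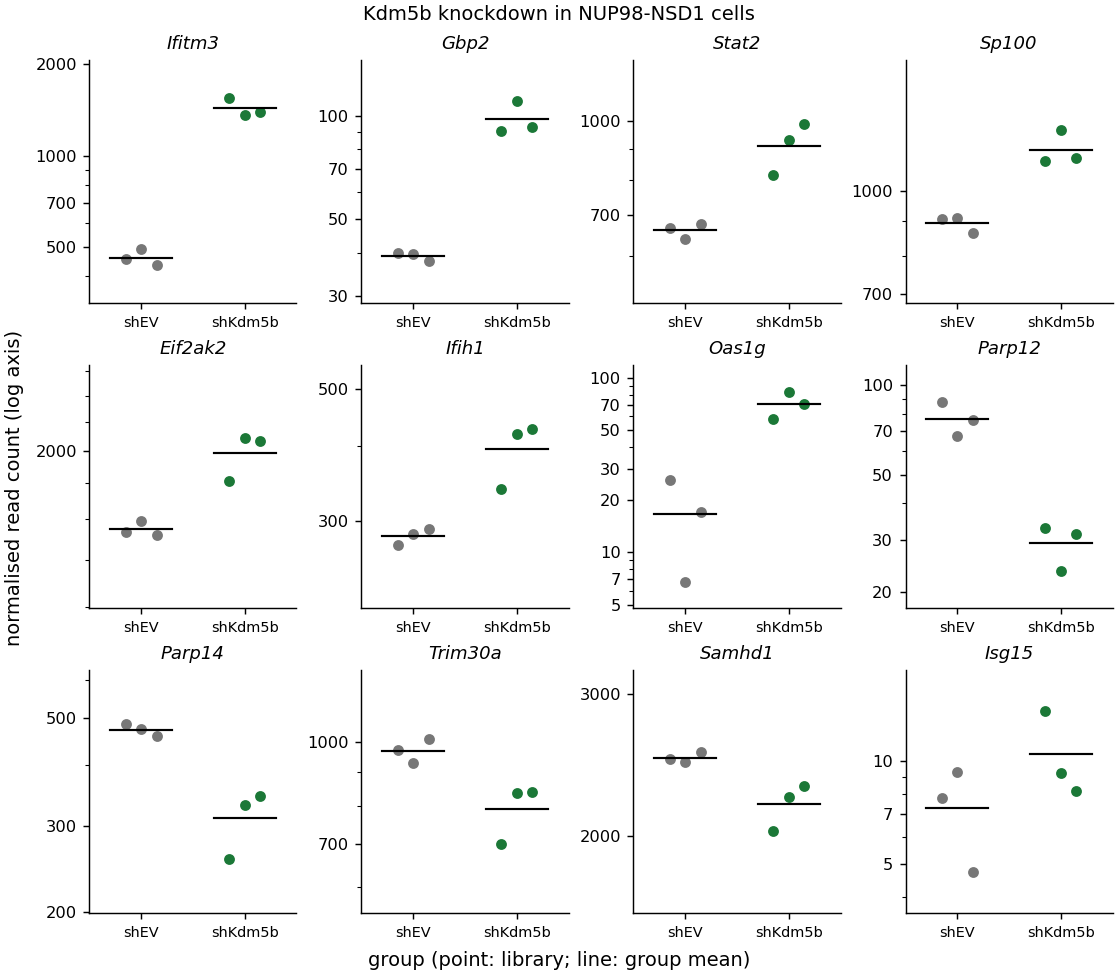
Normalised read counts (log axis) of 12 interferon-stimulated genes in each NUP98-NSD1 library with shEV or shKdm5b (point, library; line, group mean; n = 3 each). Ifitm3, Gbp2 and Oas1g stand higher with shKdm5b and Parp12 and Parp14 lower, each with no overlap between groups, while the Isg15 libraries overlap.

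Of the factors of ISGF3, Stat2 read 666, 641 and 678 with shEV and 816, 931 and 988 with shKdm5b, 1.38-fold higher (0.33 ± 0.06 SE; limma adjusted p = 0.00279). Irf9 read 275, 291 and 279 and then 339, 358 and 382 (1.28-fold; limma adjusted p = 0.0108), a call lost without shEV replicate 1 or 3 (0.0573 and 0.0504). Irf1 read 575, 584 and 562 and then 724, 658 and 695 (1.21-fold; limma adjusted p = 0.0116), lost without the same libraries (0.0549 and 0.0604). Irf7 was low in both groups, at 25.2, 31.3 and 31.2 and at 26.1, 37.0 and 32.8, and was not called (limma adjusted p = 0.741, no filter).

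Eif2ak2, Ifih1, Oas2, Ddx58, Dhx58 and Sp100 were called higher, each by at most 1.50-fold. Eif2ak2 read 1536, 1592 and 1519 and then 1813, 2087 and 2068 (1.28-fold; limma adjusted p = 0.0033), and Ifih1 read 273, 285 and 291 and then 339, 419.5 and 429 (1.40-fold; limma adjusted p = 0.00868). Oas2 read 198, 193 and 191 and then 228, 269 and 374, and its rise of 1.50-fold (limma adjusted p = 0.0355) was lost when any shEV library or shKdm5b replicate 2 was left out (0.0676 to 0.101). Ddx58 (1.35-fold, limma adjusted p = 0.0317) and Dhx58 (1.24-fold, 0.0472) were likewise lost without single libraries, up to 0.114 and 0.184. Dhx58 also lost its call with no filter (0.0573), the replicate block (0.062) and quantile normalisation (0.0706). The same held for Dhx58 by voom on genes with at least 10 reads (adjusted p = 0.0506). Sp100 read 907, 909.7 and 865 and then 1107, 1232 and 1118 (1.29-fold; limma adjusted p = 0.00254).

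Other members fell, among them Parp14, Parp12 and Dtx3l. Parp14, an ADP-ribosyltransferase, read 486, 475 and 461 with shEV and 257, 331 and 347 with shKdm5b (0.657 times; -0.37 ± 0.06 SE; limma adjusted p = 0.00307), with no overlap. Parp12 lay below the filter at 87.7, 67.7 and 76.5 with shEV and 33.1, 23.7 and 31.4 with shKdm5b (0.380 times; limma adjusted p = 0.00128, no filter). Parp9, which neighbours Parp14 and Dtx3l on chromosome 16, read 575, 544 and 607 and then 626, 627 and 651 and was not called (limma adjusted p = 0.125). Trim30a (0.815 times; limma adjusted p = 0.0215), Dtx3l (0.856 times; 0.0249) and Samhd1 (0.876 times; 0.0286) were lower, and each lost its call without shEV replicate 1 or 3 (0.0763 to 0.112). Isg20, an exonuclease, was called higher in the unfiltered fit (1.98-fold; limma adjusted p = 0.0448).

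Isg15, Rsad2 and Ifit3, often read as signs of interferon exposure, were low in both groups. Isg15 read 7.81, 9.31 and 4.72 with shEV and 14.0, 9.25 and 8.19 with shKdm5b, with overlap and no call (limma adjusted p = 0.425, no filter). Rsad2, Ifit3, Xaf1 and Ifi27l2a held at most 10.4 normalised counts in any library, where a difference was not detectable at this depth. Bst2, Adar, Ifi35, Trim25, Herc6, Ifit2, Nmi, Usp18 and Rtp4 were not called, with folds from 0.883 for Nmi to 1.29 for Usp18 and Rtp4. The monocyte and macrophage markers (6 of 8 with a row) summed to 39481 to 40583 with shEV and 29322 to 33412 with shKdm5b, and all 6 fell. The 12 progenitor and leukaemia markers overlapped, at 367766 to 376896 with shEV and 346113 to 400971 with shKdm5b. Cd79b was at 332 with shEV and 69.7 with shKdm5b, as group means. The part of these markers in the members' results was not tested.

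Of 15 receptor and JAK-STAT genes tested 7 rose and 3 fell with shKdm5b, where 15.0% of all genes rose and 17.4% fell. Irf8 rose from 3988 ± 149 to 6215 ± 520 (1.56-fold; limma adjusted p = 0.000177) and Ifngr1, the binding chain of the interferon-gamma receptor, from 9652 ± 296 to 13133 ± 349 (1.36-fold; limma adjusted p = 0.000181; SD, n = 3 each). Of 19 sensing genes 0 rose by limma (1 at an unadjusted p under 0.05, 0 by voom) and 4 fell, with Tlr9 at 0.502 and the adaptor Myd88 at 0.755 times shEV (limma adjusted p = 0.000733 and 0.00101). Of 37 other interferon-induced genes 15 rose and 4 fell, beside the same 15.0% and 17.4% of all genes. Ly6c2 rose 2.48-fold, from 3047 ± 60.3 to 7551 ± 184, and the chemokine Cxcl10 1.87-fold, from 199 ± 17.1 to 374 ± 28.9 (SD, n = 3 each; limma adjusted p = 4.11e-07 and 0.000263).

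With the PRC2 inhibitors fewer of the listed genes were called and the differences were small: Bst2 rose and Samhd1, Irf1 and Dtx3l fell with both. UNC1999 raised 5 and lowered 5 of 27 genes tested, against 23.9% and 24.0% of all genes, with a median difference of -0.03 log2 units against -0.01, and with no filter 6 and 5 of 35 (19.2% and 18.4% of all genes). JQEZ5 raised 1 and lowered 7, against 13.1% and 10.5%, with a median of -0.08 against 0.01, and with no filter 1 and 7 of 35 (9.44% and 7.64%). Both comparisons use the same 3 DMSO libraries. Tested directly, 7 genes were higher with UNC1999 than with JQEZ5 and 0 lower by limma (18.7% and 17.7% of all genes; 1 was lower at an unadjusted p under 0.05 and 0 by voom), with a median of 0.10 against 0.00. With no filter 8 of 35 were higher and 0 lower (14.1% and 12.8%). Without JQEZ5 replicate 3 the number higher was 4, and with quantile normalisation, no trend or robust settings 1 was lower.

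Bst2 read 1067, 969.9 and 972 in DMSO, 1414, 1301 and 1330.4 with UNC1999 and 1322, 1086 and 1288 with JQEZ5. Both treated groups lay above DMSO with no overlap, by 1.34-fold (0.36 ± 0.06 SE; limma adjusted p = 7.35e-05) and 1.23-fold (0.25 ± 0.06 SE; limma adjusted p = 0.00452). Between the inhibitors Bst2 differed by 0.11 ± 0.06 log2 units (SE; 95% confidence interval -0.01 to 0.23; limma adjusted p = 0.128). Samhd1, which limits the dNTP pool, fell with both: it read 2738, 2682 and 2613 in DMSO, 2112, 2227 and 2086 with UNC1999 and 1974, 1997 and 1986 with JQEZ5. The 3 groups did not overlap, with levels at 0.800 and 0.742 times DMSO (limma adjusted p = 2.37e-06 and 3.29e-07). UNC1999 stood 1.08-fold above JQEZ5 for Samhd1 (limma adjusted p = 0.0293), a call lost without UNC1999 replicate 2, JQEZ5 replicate 1 or JQEZ5 replicate 3 (0.136, 0.0732 and 0.0764), with quantile normalisation (0.12), with no trend (0.061) and with the 2 groups alone (0.0533). Irf1 read 584, 583 and 604 in DMSO, 456, 471 and 345 with UNC1999 and 437, 486 and 451 with JQEZ5, and fell with both (0.718 and 0.775 times; limma adjusted p = 0.000397 and 0.00766). Dtx3l fell with both as well (0.853 and 0.809 times; limma adjusted p = 0.00744 and 0.00236).

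**Figure D5:**
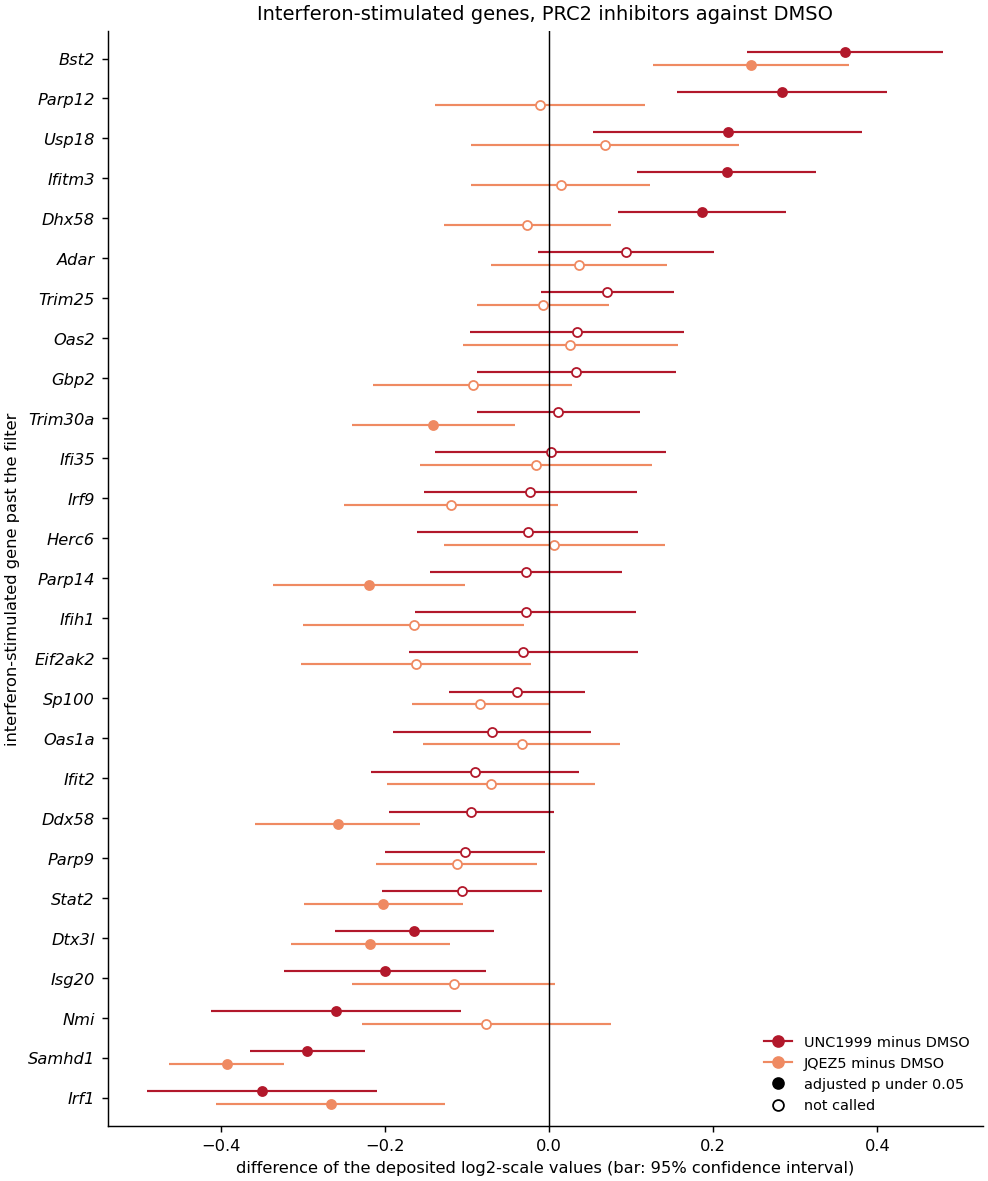
Differences of the deposited log2-scale values from DMSO (x axis; bar, 95% confidence interval) for the 27 tested interferon-stimulated genes (y axis), UNC1999 in dark red and JQEZ5 in orange, filled where the limma adjusted p is under 0.05. The differences stay between -0.39 for Samhd1 with JQEZ5 and 0.36 for Bst2 with UNC1999, and most points are open.

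Other members were called with one inhibitor only, which does not by itself show a difference between the inhibitors. Parp12 stood at 201, 186 and 231 in DMSO, 273, 293 and 298 with UNC1999 and 181, 227 and 202 with JQEZ5. The UNC1999 libraries lay above both other groups, 1.40-fold above DMSO (limma adjusted p = 0.00109) and 1.42-fold above JQEZ5 (limma adjusted p = 0.00127). Ifitm3 read 1833, 1912 and 1959, then 2219, 2228 and 2287, then 2007, 1707 and 2068, and UNC1999 was 1.18-fold above DMSO (limma adjusted p = 0.00251) and 1.16-fold above JQEZ5 (0.00579). Dhx58 was also highest with UNC1999, 1.23-fold above DMSO and 1.27-fold above JQEZ5 (limma adjusted p = 0.00458 and 0.00264). Ddx58 went down with JQEZ5: it read 389.8, 357 and 375 in DMSO, 357, 324 and 334 with UNC1999 and 289, 287 and 272 with JQEZ5. JQEZ5 lay below DMSO (0.756 times; limma adjusted p = 0.000855), and UNC1999 stood 1.20-fold above JQEZ5 (limma adjusted p = 0.0138), a call lost without UNC1999 replicate 1 or JQEZ5 replicate 3 (0.0578 and 0.0596). Parp14 was lower with JQEZ5 (0.792 times DMSO; limma adjusted p = 0.00849) and UNC1999 stood 1.23-fold above JQEZ5 (0.0129; 0.0617 without UNC1999 replicate 1 and 0.0521 without JQEZ5 replicate 1). Trim30a was lower with JQEZ5 (0.877 times, limma adjusted p = 0.0381). The call was lost whichever DMSO or JQEZ5 library was left out (0.0643 to 0.142) and with the replicate block (0.0568). UNC1999 stood 1.15-fold above JQEZ5 (limma adjusted p = 0.0182; 0.0652 without UNC1999 replicate 3 and 0.0687 without JQEZ5 replicate 3).

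Among the transcription factors, Stat2 read 503, 533 and 498 in DMSO, 444, 455 and 486 with UNC1999 and 401, 416 and 440.1 with JQEZ5. It was lower with JQEZ5 (0.820 times; limma adjusted p = 0.0041) and not called with UNC1999 (0.902 times; limma adjusted p = 0.0672; 0.0269 without UNC1999 replicate 3), and the inhibitors differed by 0.10 ± 0.05 log2 units (SE; limma adjusted p = 0.115). Irf9 and Irf7 were not called with either inhibitor; the Irf7 libraries lay at 36.7 to 47.0 in DMSO, 21.5 to 39.2 with UNC1999 and 24.1 to 34.8 with JQEZ5, below the filter. Isg20 (0.755 times; limma adjusted p = 0.00994; 0.0565 without DMSO replicate 3) and Nmi (0.632 times; limma adjusted p = 0.00707) fell with UNC1999. Between UNC1999 and JQEZ5, Isg20, Nmi and Usp18 were not called (log2 differences -0.08 ± 0.06, -0.18 ± 0.07 and 0.15 ± 0.08 SE; limma adjusted p = 0.285, 0.0564 and 0.145). Usp18 rose 1.52-fold with UNC1999 (limma adjusted p = 0.029), with overlapping libraries. Its call was lost without DMSO replicate 1, DMSO replicate 2, UNC1999 replicate 1 or UNC1999 replicate 2 (0.066 to 0.131). It was also lost with the 2 groups alone (0.052). Rsad2, a radical-SAM enzyme that makes an antiviral nucleotide, lay below the filter at 14.8, 20.0 and 22.0 in DMSO, 42.3, 42.9 and 54.0 with UNC1999 and 24.6, 32.5 and 28.8 with JQEZ5. The UNC1999 libraries stood above both other groups, 2.45-fold above DMSO and 1.62-fold above JQEZ5 (limma adjusted p = 0.00118 and 0.0432, no filter).

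The remaining members with a row were not called with either inhibitor: Oas1a, Oas1g, Oas2, Oas3, Ifit1, Ifit2, Isg15, Ifih1, Eif2ak2, Ifi35, Xaf1, Parp9, Trim25, Adar, Herc6, Ifi27l2a, Sp100 and Gbp2. Isg15 read 23.7, 35.6 and 38.0 in DMSO, 23.0, 22.5 and 25.8 with UNC1999 and 25.4, 13.9 and 22.8 with JQEZ5, with overlap. The monocyte and macrophage markers (7 of 8 with a row) summed to 83940.1 to 85470.5 in DMSO, 198861 to 210193 with UNC1999 and 149997 to 151213 with JQEZ5. Of 12 progenitor and leukaemia markers 11 had a row. They summed to 143616 to 148703 in DMSO, 124148 to 127464 with UNC1999 and 148647 to 154499 with JQEZ5. Cd79b, the B cell marker with a row, was at 194 in DMSO, 87.8 with UNC1999 and 69.4 with JQEZ5, as group means, and the 2 dendritic markers with a row summed to 1362 to 1424 in DMSO, 855 to 1000.2 with UNC1999 and 953 to 969.6 with JQEZ5. The part of these markers in the members' differences was not tested.

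Of 16 receptor and JAK-STAT genes, 5 rose and 6 fell with UNC1999 and 2 rose and 6 fell with JQEZ5. Of all genes 23.9% rose and 24.0% fell with UNC1999, and 13.1% rose and 10.5% fell with JQEZ5, so the receptor genes that rose lie near the background. Jak1, the kinase of the type I receptor, rose with both, from 4329 ± 46.3 to 5428 ± 93.8 and 4762 ± 88.1 (SD, n = 3 each; limma adjusted p = 1.89e-07 and 0.00266). Of 19 sensing genes 3 rose and 5 fell with UNC1999 and 1 rose and 7 fell with JQEZ5. The share that fell with UNC1999 lies near that of all genes. Tmem173, the adaptor STING, fell with both, to 0.742 and 0.732 times DMSO (limma adjusted p = 6.07e-05 and 0.000115), and Mb21d1, the DNA sensor cGAS, fell with UNC1999 from 210.4 ± 10.8 to 129.9 ± 18.9 (limma adjusted p = 0.000101). Of 10 inhibitors of the pathway 2 rose and 2 fell with UNC1999, led by Socs3 (1.59-fold; limma adjusted p = 4.62e-09), and 3 fell with JQEZ5. Of 50 other interferon-induced genes 17 rose and 9 fell with UNC1999 and 11 rose and 10 fell with JQEZ5. Cd274, the immune checkpoint ligand PD-L1, rose with both, from 1729 ± 23.0 to 3332 ± 71.8 with UNC1999 and 2347 ± 98.3 with JQEZ5 (1.93-fold and 1.36-fold; limma adjusted p = 1.05e-11 and 4.28e-07).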

How the data were processed

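RNA sequencing libraries of mouse leukaemia lines were read from 3 deposited tables, 1 per experiment, normalised separately by the authors. Their values are log2 values after a variance-stabilising transformation, per the file headers of the inhibitor and overexpression tables; the knockdown table does not name it and its values invert in the same way. The submitters' processing notes name STAR 2.4.2, Salmon 0.1.19, DESeq2 1.38.2 and mm10 (GRCm38.p4), without roles. The labels name 2 library kits and not which library had which.

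The transformation was inverted to normalised counts and whole reads; 100% of values below 5000 reads came out whole within 0.05 reads. Differences were tested with limma 3.58.1 (R 4.3.3): 1 mean per group over all groups of a table, a trend in the variance and Benjamini-Hochberg adjustment over the 10694, 10810 and 9458 genes tested. The code was tested on simulated data. Alternatives left out the filter or raised it to 2 log2 units, scaled by quantiles or by medians, dropped the variance trend, used robust variances, a replicate block or the 2 groups alone, ran voom on reads, and left out each library; voom on genes with at least 10 reads was added after seeing the data. Intervals are at 95%.

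Members and lists were chosen with earlier results of these data known. Named were Stat2, Irf1, Irf7 and Irf9, up to 30 called members per comparison by size, members needed to account for all 43, up to 4 called genes of lowest adjusted p per pathway list, and Kdm5b; such genes are also given in other comparisons, as chosen after their values were seen. Some genes of the lists are not reported here. Positions are from GENCODE vM21 and promoters from RefSeq GRCm38.p6. Rows named as dates (18, 22 and 18) carry no gene symbol that could be matched.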

Additional observations from a re-analysis of the deposited data

How the results depend on the processing

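No called difference of a named gene changed direction in the alternatives run; uncalled ones near 0 could. With the filter at 2 log2 units, which tests fewer genes, members lower with UNC1999 against DMSO were 3, and members higher with shKdm5b 5. The same filter left 1794 genes higher and 3 members lower for WT against EV, and 12 members higher and 1 lower for H499A against EV. For WT against H499A it left 1736 genes higher, 0 members higher and 12 lower. Between UNC1999 and JQEZ5, 1 member was lower with quantile normalisation, with no trend and with robust variances. Testing more genes, voom with at least 10 reads gave 35 members higher for H499A against EV and 34 lower for WT against H499A, as did no filter for the latter (34).

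With 1 library left out, members higher with UNC1999 than JQEZ5 ran from 4 to 10 and lower from 0 to 1. For shKdm5b, genes higher ran from 891 to 2563, genes lower from 1016 to 2993, members higher from 6 to 10 and members lower from 1 to 5. Members lower with H499A than EV ran from 1 to 2. Results were counted per comparison and setting for members called in the filtered fit. Stat2, Irf1, Irf7 and Irf9 were counted where tested, whether called or not. Other uncalled members that gained a call in a setting are not in these numbers. In other settings 1089 such results were unchanged, 9 lost their call and 2 gained one. With a library left out these were 730, 56 and 3. The cause of the changes was not tested.

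Deviations of same-numbered replicates from their group means had correlations from -0.081 to 0.1598, -0.1505 to 0.223 and -0.054 to -0.011 in the 3 experiments. With 2 or 3 libraries a group the deviations are tied to each other. Such correlations therefore cannot show whether the numbers pair libraries. With the replicate block, members higher and lower were 5 and 5 for UNC1999, 1 and 6 for JQEZ5, 7 and 0 between the inhibitors, 10 and 4 for shKdm5b, 13 and 8 for WT, 23 and 2 for H499A and 2 and 21 for WT against H499A. Precision is limited by 2 or 3 libraries a group, and low members such as Oasl2, Ifit3 and Rsad2 rest on few reads.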

Other observations

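The list of other interferon-induced genes holds 7 genes of antigen processing, grouped here after their values were seen. In MLL-AF9 cells Psmb8, an immunoproteasome subunit, was lower in both Kdm5b groups, at 0.799 times EV with WT and 0.767 times with H499A (limma adjusted p = 2.04e-10 and 1.3e-11). The peptide transporter genes Tap1 (0.837 and 0.793 times; limma adjusted p = 1e-05 and 2.86e-07) and Tap2 (0.885 and 0.765 times; 3.79e-05 and 1.75e-10) were lower too, as was the regulator Nlrc5 (0.847 and 0.876 times; 0.00463 and 0.0258). Tapbp, which loads peptides, was higher in both (1.25-fold and 1.41-fold; limma adjusted p = 5.4e-10 and 1.87e-13). Psmb9 was lower with H499A (0.891 times; limma adjusted p = 0.00196) and not called with WT (0.256), and Psmb10 was higher with WT (1.17-fold; 0.000109) and not called with H499A (0.709).

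The chemokine gene Cxcl10 was higher with H499A than EV (3.59-fold; limma adjusted p = 1.07e-10) and with shKdm5b than shEV (1.87-fold; 0.000263), and lower with UNC1999 and JQEZ5 than DMSO (0.617 and 0.695 times; 0.0021 and 0.026). These are values from separately normalised experiments and different lines.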
